A study of Homo sapiens with 24 samples.

Results

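Aminoacyl-tRNA synthetases join each amino acid to its transfer RNA and so supply the ribosome with charged tRNAs. The genes described here were listed by this function. The list names 35 genes, of which 19 encode cytosolic enzymes and 16 encode mitochondrial enzymes, and it does not hold every synthetase gene. All 35 were found among the 57500 gene identifiers of each of the 24 count files, and all 35 passed the filter on low counts in every comparison.

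Human cells keep a separate set of synthetases for the cytosol and for the mitochondrion, and nearly all mitochondrial enzymes are made from their own nuclear genes. GARS1 and KARS1 are exceptions, since each gives both the cytosolic and the mitochondrial enzyme. In the cytosol, several synthetases sit together in the multi-synthetase complex on the scaffold proteins AIMP1, AIMP2 and EEF1E1. Many cytosolic synthetase genes are known targets of ATF4, the transcription factor that answers amino acid shortage, and in growing tumour cells their expression generally follows the demand for protein synthesis.

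The cells were H2052, an established human line of diffuse pleural mesothelioma, a cancer that arises from the lining of the lung. They were grown as a monolayer and transfected with 20 nM of a microRNA mimic biotinylated at its 3′ end. The mimic was miR-497-5p, which belongs to the miR-15/16 family, in the treated cells and a scrambled sequence in the control cells, so that both arms carried a biotinylated small RNA. Treated libraries are labelled miR-497-5p-RE, a suffix that the labels do not explain. Cells were taken at 12 h and at 72 h, and at each time input RNA (referred to as RNA-seq) and RNA retained from cytoplasmic extract by streptavidin beads (the pull-down) were sequenced after poly(A) selection. This made 8 groups of 3 libraries: RNA-seq and pull-down, each at 12 h and 72 h, each with Control or miR-497-5p-RE.

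Total counts ranged from 21561816 to 30602007 in RNA-seq and from 8262425 to 30650982 in the pull-down, where the lowest was miR-497-5p-RE at 72 h, replicate 2. The biological coefficient of variation was 0.0601 in RNA-seq and 0.349 in the pull-down. Separate cultures are not named in the labels. Every p-value below therefore reflects the scatter among these libraries alone, and that scatter may be technical. Mesothelial markers were present in every RNA-seq library, with a summed level of 2390 to 3490 CPM (counts scaled to each library's total count). Markers of squamous epithelium (KRT5, KRT14, KRT13, KRT4, SPRR3 and SPRR1B) summed to 406, 405 and 119 CPM in the control and 522, 15.6 and 52.9 in the treated RNA-seq libraries of 12 h, and to 0.232 to 0.509 in the 6 RNA-seq libraries of 72 h. In the pull-down the same sum ran from 20.5 to 504 at 12 h and from 0 to 0.922 at 72 h.

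The mimic's sequence is shown because matches to it in synthetase transcripts are counted below. The capitals mark the seed, bases 2 to 8, which pairs with target RNA, and the sequence is that of RefSeq for chr17:7017979-7017999 on the minus strand of GRCh38.p14.

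miR-497-5p: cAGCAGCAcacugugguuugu

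Synthetase mRNAs differed widely in level before any effect of the treatment was considered. Levels between genes are given in TPM, in which counts are divided by the exon length of the gene and scaled to a shared total per library. In control RNA-seq at 12 h the most abundant was KARS1, the lysyl enzyme, at 124 ± 5.27 TPM (mean ± SD, n = 3). FARSA, the catalytic subunit of the phenylalanyl enzyme, followed at 121 ± 2.79 TPM, within the spread of KARS1, while its partner subunit FARSB stood at 76.0 ± 3.52 TPM. TARS1, the threonyl enzyme, stood at 105 ± 5.12 TPM, and RARS1, the arginyl enzyme, at 86.9 ± 3.79 TPM. The cytosolic genes ranged down to CARS1, the cysteinyl enzyme, at 13.1 ± 0.392 TPM.

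Mitochondrial genes were mostly lower. CARS2 and IARS2, the cysteinyl and isoleucyl enzymes of the mitochondrion, were highest at 89.1 ± 1.29 and 75.2 ± 4.55 TPM. VARS2 and SARS2, the valyl and seryl enzymes, were lowest at 6.32 ± 0.353 and 4.60 ± 0.216 TPM. CARS2 alone gave 271, 269 and 276 CPM of a summed 584, 596 and 606 CPM for the 16 mitochondrial genes in these libraries. Reads of SARS2 and VARS2 are uncertain, because 46.2% of the exon length of SARS2 overlaps an unnamed gene model on the same strand and 10.8% overlaps genes of the opposite strand, and 22.0% of that of VARS2 overlaps GTF2H4. HARS1 and HARS2 lie head to head and share 18.3% and 17.4% of their exon length with genes of the opposite strand, and 12.4% of MARS1 lies opposite ARHGAP9 and DDIT3. Whether counting used strand is not stated, so these reads cannot be told apart.

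**Figure D1:**
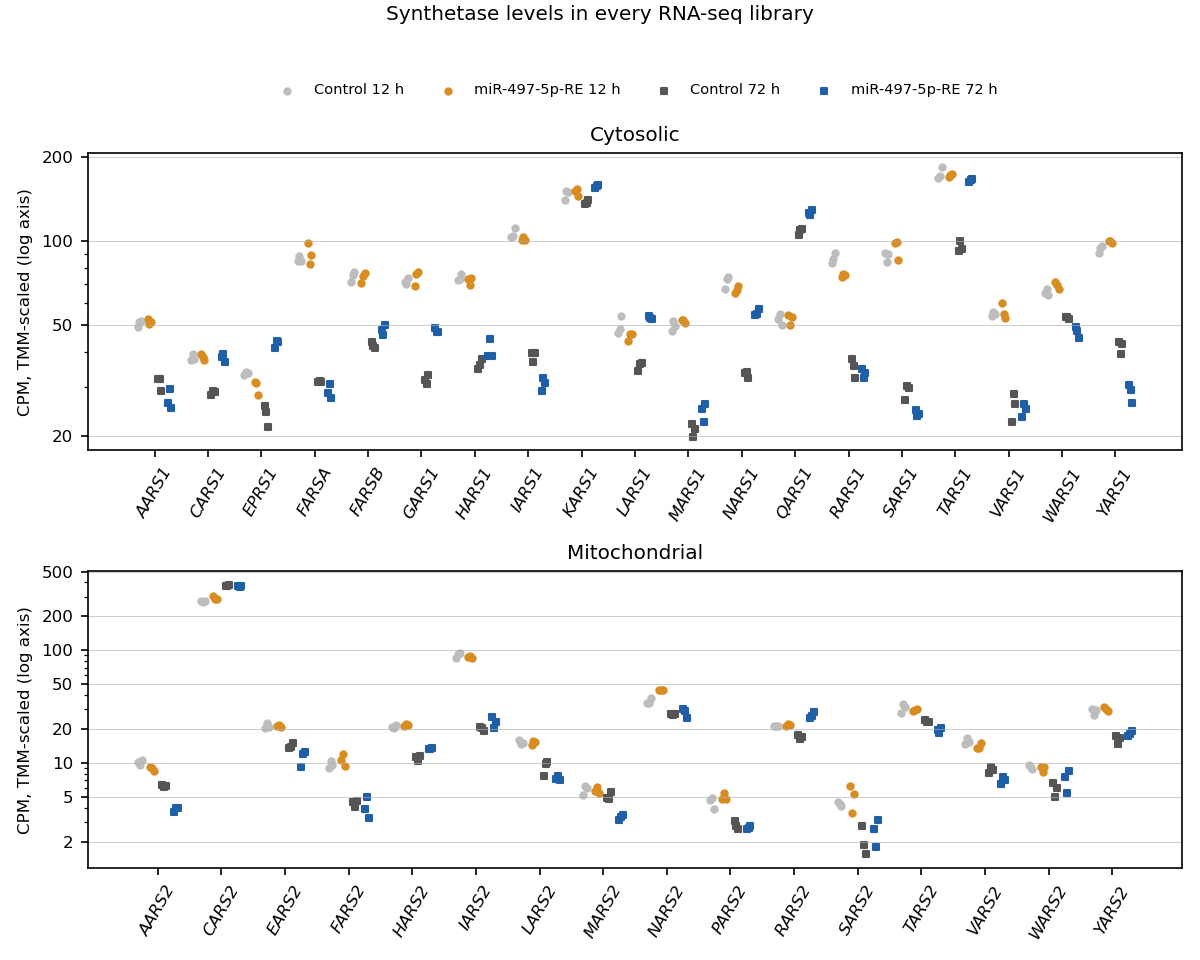
Level of each synthetase gene in CPM (TMM-scaled, log axis) in the 12 RNA-seq libraries, cytosolic above and mitochondrial below, 1 symbol per library (circles 12 h, squares 72 h, grey Control, orange and blue miR-497-5p-RE). Most genes sit lower at 72 h than at 12 h, QARS1 and CARS2 sit higher, and at 72 h the blue symbols of EPRS1, TARS1, NARS1, GARS1 and LARS1 lie above the dark grey ones while those of YARS1 and IARS1 lie below.

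In cells with the scrambled mimic, synthetase mRNAs fell between 12 h and 72 h. The summed level of the 19 cytosolic genes was 1430, 1470 and 1500 CPM (here and below scaled within each assay by the trimmed mean of M-values, TMM) at 12 h and 874, 885 and 879 at 72 h. All 3 libraries of 72 h lay below all 3 of 12 h. In edgeR's quasi-likelihood test with Benjamini-Hochberg adjustment over 17335 genes, at a threshold of 0.05, 32 of the 35 synthetases were lower and 2 were higher at 72 h, while 74.4% of all genes tested were called (38.4% lower and 36.1% higher).

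The fall was spread over both compartments. Of the cytosolic genes 18 of 19 fell, with a median log2 fold change of -1.03 over the 19, and of the mitochondrial genes 14 of 16 fell, with a median of -0.69 over the 16. The median over all genes tested was 0. SARS1, the seryl enzyme, went from 90.1, 83.9 and 90.0 CPM to 27.0, 30.3 and 29.8, a log2 fold change of -1.60 ± 0.06 (standard error, as after every fold change below). IARS2, the mitochondrial isoleucyl enzyme, showed the largest fall of the 35, from 85.2, 93.4 and 95.3 CPM to 20.9, 20.6 and 19.1 (-2.18 ± 0.06).

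QARS1, the glutaminyl enzyme, moved the other way, from 52.6, 54.5 and 49.8 CPM to 105, 109 and 110 (1.05 ± 0.04, adjusted p = 3.27e-25). CARS2 also rose (0.46 ± 0.03), and MARS2 was the 1 gene of the 35 that did not pass (-0.21 ± 0.13, adjusted p = 0.149). Scaling by library totals moved the median of all genes by -0.25 on the log2 scale and left 33 synthetases lower and 2 higher. Markers of other cell types and of mesothelium moved with time as well. Of the squamous markers 4 of 6 were lower at 72 h, with 3 of the 6 at 0 in all control RNA-seq libraries of 72 h. The 3 immune markers (PTPRC, CD3E and LYZ) were all lower too, with a summed level of 4.02 to 4.55 CPM at 12 h and 0 to 0.117 CPM at 72 h. Both endothelial markers tested (of PECAM1, VWF and CDH5) were lower, with a sum of 0.948 to 2.42 CPM against 0.0379 to 0.0725 CPM. Of 9 mesothelial markers tested 5 were lower and 3 higher, with a sum of 3230 to 3300 CPM against 2390 to 2460 CPM. The part of these shifts in the fall of the synthetases was not tested.

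At 12 h miR-497-5p-RE changed few synthetase mRNAs. In RNA-seq 3 of 35 passed the test, 2 higher and 1 lower, while 12.5% of all genes tested were called (7.25% higher and 5.30% lower). The median over the 35 was 0.01, as it was over all genes. The arms did not overlap for 9 of the 35 genes (25.7%), and the same share, 25.7%, held for all genes tested.

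RARS1 was the gene that fell. It stood at 83.4, 86.1 and 90.6 CPM in the controls and at 74.5, 76.3 and 75.7 CPM with miR-497-5p-RE, so that each treated library lay below each control, and the log2 fold change was -0.20 ± 0.05 (adjusted p = 0.00382). NARS2, the mitochondrial asparaginyl enzyme, rose from 34.3, 33.9 and 37.6 CPM to 44.1, 44.4 and 44.1 CPM (0.32 ± 0.06, adjusted p = 0.000125). Its treated libraries all lay above its controls. CARS2 rose by a smaller amount (0.10 ± 0.03, adjusted p = 0.0251), and this call was lost when control replicate 1, control replicate 2 or treated replicate 1 was left out (adjusted p = 0.0652, 0.0981 and 0.0837) and with scaling by library totals (0.258). No cytosolic gene was called higher by edgeR or by DESeq2, and none reached an unadjusted p under 0.05 in that direction (0 of 19). Squamous markers differed between single libraries of 12 h, and 2 of the 6 were called lower with miR-497-5p-RE. Their part in these calls was not tested.

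**Figure D2:**
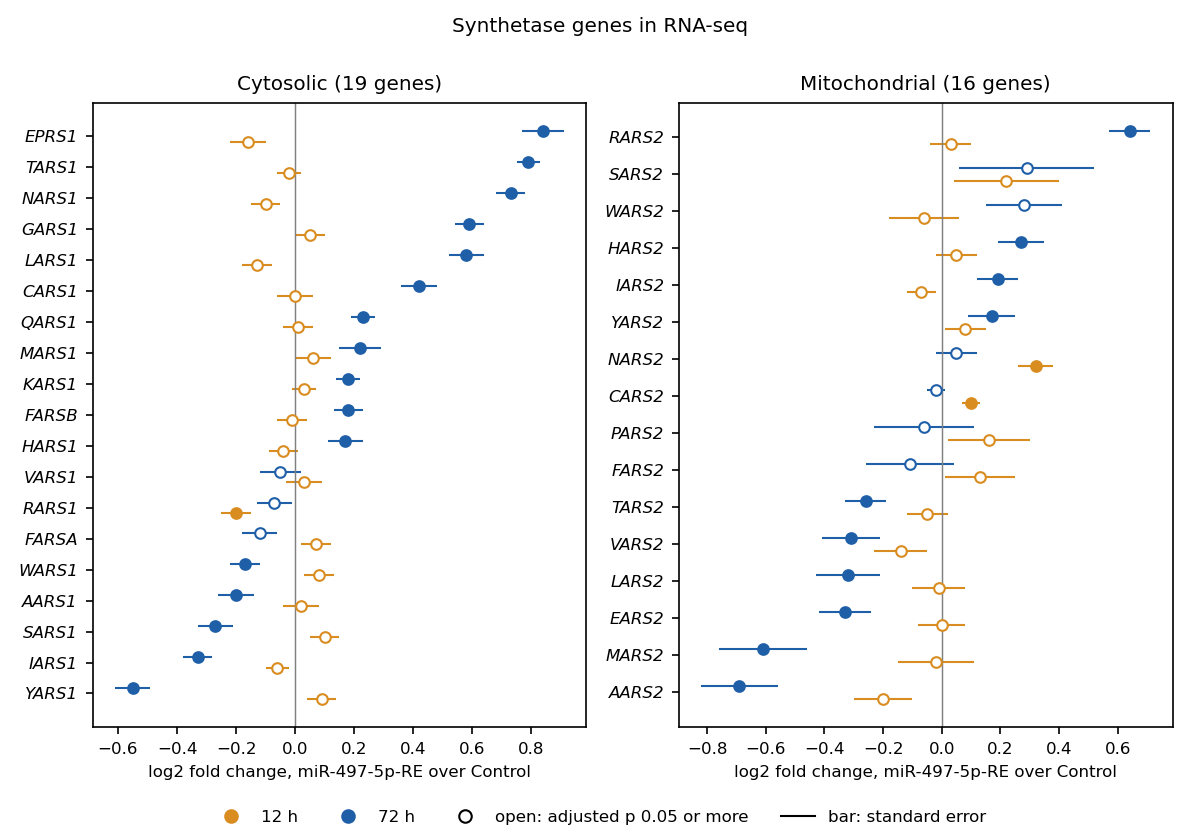
Log2 fold change of miR-497-5p-RE over Control in RNA-seq for 19 cytosolic (left) and 16 mitochondrial (right) synthetase genes, ordered by the value at 72 h (orange 12 h, blue 72 h, bars standard errors, open symbols an adjusted p of 0.05 or more). The 12 h values lie between -0.20 and 0.32, while those of 72 h spread from -0.69 to 0.84, with 11 of 19 cytosolic genes higher and 5 lower.

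At 72 h most synthetase mRNAs differed between the arms, in both directions. Of the 35 genes, 15 were higher and 11 lower with miR-497-5p-RE, while 57.5% of all genes tested were called (27.9% higher and 29.6% lower). Cytosolic genes leaned upward, with 11 higher, 5 lower and a median log2 fold change of 0.18, and mitochondrial genes did not, with 4 higher, 6 lower and a median of -0.04. The median over all genes was 0. The difference between the compartments is a description of these counts and was not tested. Scaling by library totals, which moved the median of all genes by -0.10, gave 7 higher and 8 lower cytosolic genes and 1 higher and 7 lower mitochondrial genes.

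The summed level of the cytosolic genes was 874, 885 and 879 CPM in the controls and 1040, 1050 and 1040 CPM with miR-497-5p-RE, without overlap. That of the mitochondrial genes was 547, 540 and 557 CPM against 551, 537 and 553 CPM, and these ranges overlapped. The arms did not overlap for 16 of 19 cytosolic genes (84.2%) and 8 of 16 mitochondrial genes, against 63.7% of all genes tested.

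EPRS1, which carries both the glutamyl and the prolyl activity, showed the largest rise of the 35. It stood at 25.6, 24.4 and 21.6 CPM in the controls and at 41.3, 43.8 and 43.4 CPM with miR-497-5p-RE (0.84 ± 0.07, adjusted p = 1.93e-15). The treated libraries of 72 h lay above those of both 12 h groups, of which the highest was 34.0 CPM. TARS1 stood at 92.1, 99.9 and 93.7 CPM in the controls and at 162, 165 and 166 CPM with miR-497-5p-RE (0.79 ± 0.04, adjusted p = 7.36e-22), close to the 168, 171 and 184 CPM of the controls of 12 h.

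NARS1, the asparaginyl enzyme, also rose, with 33.5, 34.0 and 32.3 CPM against 54.1, 54.8 and 57.2 CPM (0.73 ± 0.05, adjusted p = 1.30e-16). GARS1, the glycyl enzyme of both compartments, stood at 31.7, 30.7 and 33.1 CPM against 48.9, 47.3 and 47.3 CPM (0.59 ± 0.05, adjusted p = 3.45e-13). LARS1, the leucyl enzyme, stood at 34.1, 36.2 and 36.4 CPM against 53.9, 52.9 and 52.3 CPM (0.58 ± 0.06, adjusted p = 3.27e-12). In each of these 3 genes the treated libraries lay well above the controls. CARS1 rose by 0.42 ± 0.06 and QARS1 by 0.23 ± 0.04, and both kept their call in every alternative that was run. MARS1, KARS1, FARSB and HARS1 rose by 0.17 to 0.22, and none of these 4 passed with scaling by library totals (0.06 to 0.11).

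Of the cytosolic genes that fell, YARS1, the tyrosyl enzyme, showed the largest change. It stood at 43.5, 39.4 and 42.8 CPM in the controls and at 30.4, 29.3 and 26.2 CPM with miR-497-5p-RE (-0.55 ± 0.06, adjusted p = 5.70e-12). IARS1, the cytosolic isoleucyl enzyme, stood at 39.6, 36.8 and 39.7 CPM against 29.1, 32.4 and 30.9 CPM (-0.33 ± 0.05, adjusted p = 5.56e-07). SARS1 fell from 27.0, 30.3 and 29.8 CPM to 24.7, 23.6 and 24.0 CPM (-0.27 ± 0.06, adjusted p = 0.000236). For these 3 genes all treated libraries were below all controls, so levels that had already dropped with time were lower again with miR-497-5p-RE. AARS1, the alanyl enzyme, and WARS1, the tryptophanyl enzyme, fell by 0.20 ± 0.06 and 0.17 ± 0.05 on the log2 scale, and the call of AARS1 was lost without treated replicate 3 (adjusted p = 0.0595).

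RARS1, which had fallen at 12 h, did not pass at 72 h, with 37.6, 35.7 and 32.2 CPM against 34.9, 32.3 and 33.5 CPM (-0.07 ± 0.06, adjusted p = 0.307). FARSA and VARS1, the valyl enzyme, did not pass either (-0.12 ± 0.06 and -0.05 ± 0.07). With scaling by library totals these 3 genes were called lower, RARS1 at -0.18, FARSA at -0.23 and VARS1 at -0.16. The subunits of the phenylalanyl enzyme thus had values of opposite sign, with FARSB called higher at 0.18 ± 0.05.

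Among the mitochondrial genes, RARS2, the mitochondrial arginyl enzyme, rose most, from 17.6, 16.4 and 16.9 CPM to 24.8, 26.1 and 28.5 CPM (0.64 ± 0.07, adjusted p = 3.06e-11). AARS2, the mitochondrial alanyl enzyme, fell from 6.41, 6.15 and 6.24 CPM to 3.68, 4.02 and 3.96 CPM (-0.69 ± 0.13, adjusted p = 7.48e-06). MARS2, the mitochondrial methionyl enzyme, fell from 4.84, 4.76 and 5.49 CPM to 3.12, 3.28 and 3.48 CPM (-0.61 ± 0.15, adjusted p = 0.000386). The arms of these 3 genes did not overlap.

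EARS2, LARS2, VARS2 and TARS2 fell by 0.26 to 0.33 on the log2 scale. TARS2 kept its call in every alternative, and the others were each lost when 1 library was left out. EARS2 was lost without treated replicate 1 (adjusted p = 0.0511), LARS2 without control replicate 2 or 3 (0.0556 and 0.0743), and VARS2 without control replicate 2 or treated replicate 1 (0.0524 and 0.0622). HARS2, IARS2 and YARS2 rose by 0.17 to 0.27, and none of these 3 passed with scaling by library totals. IARS2 was also lost without control replicate 3 or treated replicate 1 (adjusted p = 0.0968 and 0.195). YARS2, at an adjusted p of 0.0466, was lost under most alternatives, DESeq2 included (0.0613). CARS2, the most abundant of the mitochondrial mRNAs, did not differ by the test (371, 371 and 382 CPM against 374, 362 and 372 CPM). With scaling by library totals CARS2 was called lower (-0.13, adjusted p = 0.000308).

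For 13 amino acids the list holds 1 cytosolic and 1 mitochondrial gene. At 72 h both genes were called in 7 of these pairs, in opposite directions in 5 and in the same direction in 2, and in the other 6 pairs at least 1 gene did not pass. The threonyl pair gave 0.79 in TARS1 and -0.26 in TARS2, and the leucyl pair 0.58 in LARS1 and -0.32 in LARS2. The methionyl pair gave 0.22 in MARS1 and -0.61 in MARS2, the isoleucyl pair -0.33 in IARS1 and 0.19 in IARS2, and the tyrosyl pair -0.55 in YARS1 and 0.17 in YARS2. With scaling by library totals 4 pairs were called in opposite directions, and they were partly other pairs: the threonyl and leucyl pairs stayed, MARS1, IARS2 and YARS2 did not pass, and the cysteinyl and arginyl pairs were added. The alanyl pair was lower in both genes (-0.20 in AARS1 and -0.69 in AARS2), and the histidyl pair, whose genes overlap, was higher in both (0.17 in HARS1 and 0.27 in HARS2), though neither histidyl gene passed with library totals. Differences within pairs were not tested.

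The effect of miR-497-5p-RE in RNA-seq differed between the times for 23 of 35 synthetases, 12 with a larger value at 72 h and 11 with a smaller one, while 48.8% of all genes tested differed (22.5% higher and 26.2% lower). Of the cytosolic genes 10 were higher and 6 lower in this contrast, and of the mitochondrial genes 2 were higher and 5 lower. EPRS1 gave the widest difference, 1.00 ± 0.09 on the log2 scale (adjusted p = 4.90e-13), from -0.16 ± 0.06 at 12 h, which did not pass (adjusted p = 0.0951), to 0.84 at 72 h. RARS1 had a difference of 0.13 ± 0.07 that did not pass (adjusted p = 0.153).

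Called genes were found in both directions in each structural group of the enzymes, as they were over all genes tested (27.9% higher and 29.6% lower). Of the 7 synthetases of the multi-synthetase complex, 5 were higher (EPRS1, LARS1, QARS1, MARS1 and KARS1) and 1 lower (IARS1) in RNA-seq at 72 h, with a median of 0.22. Of the 12 cytosolic genes outside it, 6 were higher and 4 lower. Genes of the class I catalytic fold were 7 higher and 7 lower of 18, and those of class II 7 higher and 4 lower of 16, with EPRS1, which holds both folds, in neither list. The scaffold genes of the complex moved apart, since AIMP1 rose (0.78 ± 0.06, adjusted p = 3.49e-15) while AIMP2 and EEF1E1 fell (-1.02 ± 0.12 and -0.48 ± 0.11, adjusted p = 2.52e-10 and 0.000103).

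Of 13 synthetases known as ATF4 targets, 7 were higher and 5 lower at 72 h, with a median of 0.22. Of 30 other genes of the ATF4 amino acid response, 10 were higher and 12 lower, with a median of -0.07. Over all genes tested, 27.9% were higher and 29.6% lower, with a median of 0. SLC7A5, a subunit of the leucine transporter LAT1, fell (-1.76 ± 0.04), and the amino acid transporter SLC38A2 rose (1.00 ± 0.04). PYCR1, an enzyme of proline synthesis, was also lower (adjusted p = 4.23e-26), and the secreted glycoprotein STC2 was higher (adjusted p = 4.32e-25).

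Promoter sequences of RefSeq (GRCh38.p14, 250 bases before to 50 after the start) were found for 30 of the 35 genes and were searched for TGATGNAAN, the letters of the ATF4-type amino acid response element, on both strands. The element's letters were found in 8 of the 30 genes (26.7%), TARS1, GARS1, IARS1, CARS1, YARS2, MARS1, AARS1 and NARS1, while 4.45% of 27305 genes and 3.61% of 35116 promoter windows held them. These 8 genes did not move as 1 group at 72 h, since IARS1 and AARS1 fell and the other 6 rose. A stretch around the match is shown for 3 genes that rose and 2 that fell, on the gene's strand, with the matched letters in capitals, and with the coordinates of the stretch.

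TARS1 (rose), chr5:33440956-33440984, plus strand: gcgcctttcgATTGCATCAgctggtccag
NARS1 (rose), chr18:57621804-57621832, minus strand: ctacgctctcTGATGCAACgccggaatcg
CARS1 (rose), chr11:3057408-3057436, minus strand: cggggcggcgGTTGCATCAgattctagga
IARS1 (fell), chr9:92293693-92293721, minus strand: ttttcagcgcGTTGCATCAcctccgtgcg
AARS1 (fell), chr16:70289676-70289704, minus strand: ttttctcgcaGTTGCATCAgccaagttag

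The match is a description of letters and not of binding. In NARS1 it reads along the gene's strand, and in the other 4 it reads on the opposite strand. Of 3 other motifs searched on both strands, TGATGCAA, which lies within the first, was in 6 of the 30 genes (20.0%) against 1.08% of all genes. The cAMP response element letters TGACGTCA were in 0 of 30 against 2.25%, and the E-box letters CACGTG in 4 of 30 (13.3%) against 8.77%.

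In the pull-down at 12 h, 0 of 35 synthetases passed the edgeR test, while 0.595% of all genes tested did (0.326% higher and 0.269% lower). At an unadjusted p under 0.05, 3 were higher and 1 was lower. DESeq2 called 1 gene, RARS1, higher and 0 lower. The arms did not overlap for 6 of the 35 genes (17.1%), against 16.4% of all genes tested.

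RARS1 was the member closest to the threshold. It gave 54.0, 48.0 and 32.1 CPM in the control pull-down and 90.5, 65.5 and 66.9 CPM with miR-497-5p-RE, so that every treated library lay above every control. The log2 fold change was 0.73 ± 0.18 (adjusted p = 0.0575). It passed with DESeq2 (adjusted p = 0.00591), with the size factors of DESeq2 in edgeR (0.0489), with library totals (0.0175), without the filter on low counts (0.00124) and without control replicate 1 (0.0375). It did not pass in a fit of only the 6 libraries compared, nor when any other 1 of those libraries was left out.

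At 72 h, 8 of 35 synthetases were higher in the pull-down with miR-497-5p-RE and 0 were lower by edgeR, while 22.7% of all genes tested were called (10.2% higher and 12.6% lower). DESeq2 called 8 higher and 0 lower, and at an unadjusted p under 0.05 edgeR gave 11 higher and 4 lower. All 8 were cytosolic: RARS1, CARS1, SARS1, QARS1, GARS1, EPRS1, LARS1 and AARS1. The median log2 fold change was 0.40 over the cytosolic genes and 0.23 over the mitochondrial genes, against 0 over all genes. No mitochondrial gene passed with edgeR or DESeq2, and 3 of the 16 were lower at an unadjusted p under 0.05. Without control replicate 1 the count of 8 became 5, with AARS1, LARS1 and SARS1 lost (adjusted p = 0.244, 0.135 and 0.0622). The arms did not overlap for 37.1% of the 35 genes, close to the 35.5% of all genes tested.

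RARS1 showed the largest rise of the 35. The control libraries gave 13.3, 18.2 and 14.2 CPM and the treated libraries 40.4, 36.5 and 35.8 CPM, a log2 fold change of 1.30 ± 0.19 (adjusted p = 8.33e-06). No value of the treated arm came near the controls. CARS1 gave 70.3, 75.0 and 67.7 CPM against 126, 114 and 129 CPM (0.79 ± 0.13, adjusted p = 4.25e-05).

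QARS1, a member of the multi-synthetase complex, gave 269, 276 and 253 CPM in the controls against 442, 416 and 455 CPM with miR-497-5p-RE (0.72 ± 0.09, adjusted p = 1.24e-06). SARS1 gave 14.7, 20.8 and 25.5 CPM against 37.0, 34.8 and 29.5 CPM (0.73 ± 0.19, adjusted p = 0.00686). GARS1 gave 27.2, 29.1 and 32.9 CPM against 49.5, 42.1 and 52.8 CPM (0.70 ± 0.15, adjusted p = 0.000758). In each of these 3 genes the arms did not overlap, and the control libraries of SARS1 were scattered from 14.7 to 25.5 CPM, a coefficient of variation of 26.6%.

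EPRS1 rose by 0.59 ± 0.13, LARS1 by 0.56 ± 0.19 and AARS1 by 0.53 ± 0.19. AARS1 gave 14.5, 25.7 and 18.9 CPM against 30.5, 23.8 and 31.1 CPM, and these arms overlapped. Its call (adjusted p = 0.0456) was lost without any 1 of 4 of the 6 libraries, control replicate 1 or 3 or treated replicate 1 or 3 (0.244, 0.126, 0.136 and 0.154). LARS1 (adjusted p = 0.0376) was lost without control replicate 1 or 2 or treated replicate 1 (0.135, 0.123 and 0.245) and in the fit with a replicate block (0.0545). CARS1, EPRS1, GARS1, QARS1 and RARS1 passed under every alternative that gave a value.

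**Figure D3:**
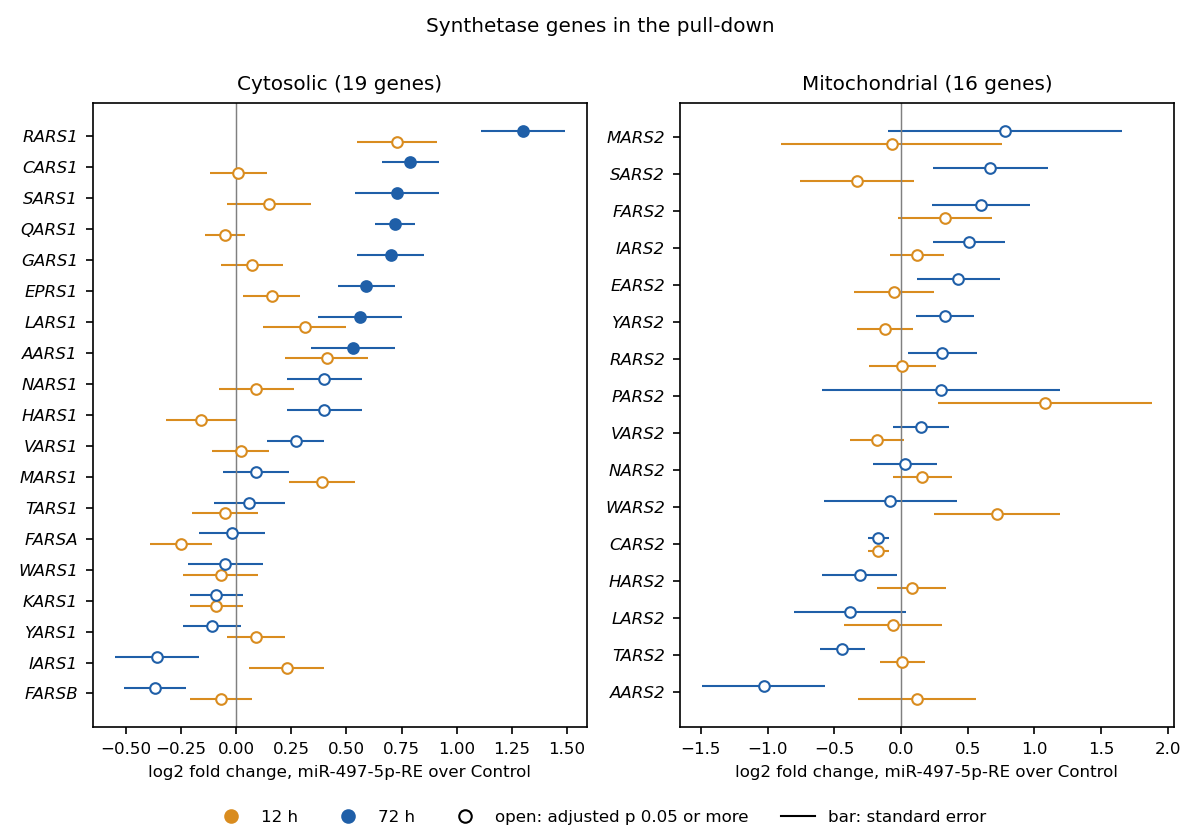
Log2 fold change of miR-497-5p-RE over Control in the pull-down for 19 cytosolic (left) and 16 mitochondrial (right) synthetase genes, ordered by the value at 72 h (orange 12 h, blue 72 h, bars standard errors, open symbols an adjusted p of 0.05 or more). The 8 filled symbols, all cytosolic and all at 72 h, run from 0.53 in AARS1 to 1.30 in RARS1, and the standard errors run from 0.09 to 0.19 in cytosolic and from 0.08 to 0.89 in mitochondrial genes.

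Levels of the mitochondrial genes in the control pull-down at 72 h ran from under 1 CPM to the 955 CPM of CARS2. TARS2 gave 41.7, 37.8 and 30.3 CPM, more than several cytosolic genes, and its value of -0.44 ± 0.17 did not pass (adjusted p = 0.0729). At the low end MARS2 gave 0, 0.427 and 2.01 CPM in the controls and PARS2, the mitochondrial prolyl enzyme, gave 0, 0.932 and 0.392 CPM, and their fold changes had standard errors of 0.88 and 0.89. Changes of the size seen in the cytosolic genes were not detectable at this depth for these 2 genes. The median standard error was 0.3 over the mitochondrial genes and 0.15 over the cytosolic genes. Changes of that size could therefore be missed in other mitochondrial genes too, and the lack of mitochondrial calls does not show a difference between the compartments. CARS2 was measured more precisely, with 920, 986 and 958 CPM in the controls against 879, 808 and 858 CPM (-0.17 ± 0.08, adjusted p = 0.138). AARS2 gave 4.19, 3.92 and 6.12 CPM against 4.44, 1.49 and 0.849 CPM, and its treated replicate 1 stood with the controls. Its value of -1.03 ± 0.46 did not pass (adjusted p = 0.121), and without that library it was -2.10 and passed (adjusted p = 0.00275). That pass rests on treated replicates 2 and 3, in which AARS2 had only 11 and 15 counts.

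Pull-down levels of several synthetases also moved with time in the control libraries, which held only the scrambled mimic. QARS1 stood at 46.4, 49.2 and 52.6 CPM at 12 h and at 253 to 276 CPM at 72 h, and CARS2 at 439, 436 and 430 CPM and then at 920 to 986 CPM. IARS2 went from 63.5, 60.9 and 47.4 CPM to 1.80, 2.87 and 1.66 CPM, and IARS1 from 40.7, 48.0 and 37.8 CPM to 6.29, 6.68 and 8.22 CPM. These time differences in the pull-down were not tested. The effect of miR-497-5p-RE differed between the times in the pull-down for 3 of 35 genes, CARS1 (0.79 ± 0.18), GARS1 (0.64 ± 0.20) and QARS1 (0.77 ± 0.13), all larger at 72 h, while 12.2% of all genes tested differed (5.94% higher and 6.27% lower). Without control replicate 3 of 12 h the count was 5. For RARS1 the difference was 0.57 ± 0.25 (adjusted p = 0.166).

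A pull-down value can move because the input moved, so the pull-down effect was compared with the RNA-seq effect in 1 fit over both assays at each time. Each gene had 1 estimate of the spread for both assays in this fit, although the assays scattered unequally. The biological coefficient of variation was 0.0601 in RNA-seq and 0.349 in the pull-down. At 12 h RARS1 was the 1 gene of 35 that passed, with a pull-down effect 0.96 ± 0.20 above its RNA-seq effect (adjusted p = 0.0321), while 1.34% of all genes tested passed (0.984% higher and 0.357% lower). The call was lost when any 1 of the 6 RNA-seq libraries or pull-down control replicate 2 was left out. Scaling by library totals moved the median of all genes in this contrast by 0.12 and again gave 1 gene higher.

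At 72 h 8 of 35 passed, 5 with a pull-down effect above the RNA-seq effect and 3 below it, while 14.5% of all genes tested passed (7.46% higher and 7.01% lower). The 5 were RARS1 (1.35 ± 0.17, adjusted p = 2.88e-05), SARS1 (0.98 ± 0.22), AARS1 (0.72 ± 0.23), QARS1 (0.47 ± 0.06, adjusted p = 5.31e-05) and CARS1 (0.36 ± 0.10). SARS1 and AARS1 were lower in the RNA-seq and higher in the pull-down of the same time. The 3 below were TARS1 (-0.73 ± 0.15, adjusted p = 0.00296), FARSB (-0.57 ± 0.14, adjusted p = 0.00839) and CARS2 (-0.17 ± 0.05, adjusted p = 0.039). No mitochondrial gene was left in the list without any 1 of the 6 RNA-seq libraries, pull-down control replicate 2 or 3 or pull-down treated replicate 2. The standard errors of QARS1 and CARS1 here were smaller than those of their pull-down effects alone (0.09 and 0.13), while those of SARS1 and AARS1 were larger. With 1 spread shared by both assays, the p-values of this contrast may be too small for some genes.

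TARS1 shows the contrast in its values. Its RNA-seq level rose with miR-497-5p-RE from 95.2 to 164 CPM in the mean, while its pull-down gave 27.0, 25.2 and 25.8 CPM in the controls and 28.9, 19.2 and 31.9 CPM with miR-497-5p-RE, which overlap. For EPRS1, GARS1 and LARS1 the pull-down effect differed from the RNA-seq effect by -0.27 ± 0.12, 0.10 ± 0.14 and -0.03 ± 0.19, and none passed, which does not show that the effects were equal. The count of 5 became 3 when RNA-seq control replicate 2 or 3 or RNA-seq treated replicate 1 or 3 was left out, and the count of 3 became 5 without pull-down treated replicate 1. Scaling by library totals, which moved the median of all genes by 0.13, gave 7 above and 2 below, all cytosolic.

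**Figure D4:**
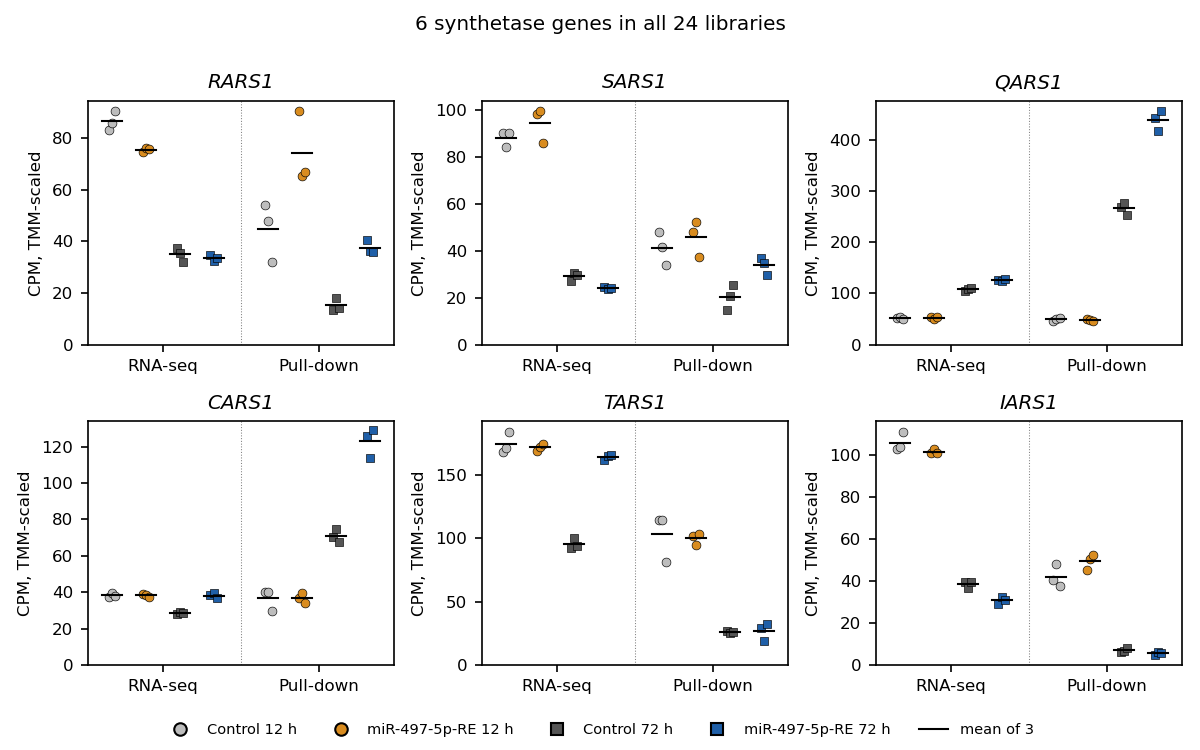
Level in CPM (TMM-scaled within each assay, axis from 0) of 6 cytosolic synthetase genes in all 24 libraries, 1 symbol per library, with circles for 12 h, squares for 72 h, grey for Control, colour for miR-497-5p-RE and lines for means of 3. RARS1 lies above its controls in the pull-down at both times and not in RNA-seq, while TARS1 lies above its controls at 72 h in RNA-seq and not in the pull-down.

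Sequence matches to the seed were counted in the transcripts of the 35 genes. Matches are, in the order of the mRNA, TGCTGCTA (8mer), TGCTGCT (7mer-m8), GCTGCTA (7mer-A1) and GCTGCT (6mer). Each GCTGCT was counted once, in its longest form and on the transcribed strand only, and matches that overlap were counted separately. In the longest annotated 3′ UTR of GENCODE release 44, 8 of 35 genes (22.9%) held a 7mer or an 8mer, while 26.3% of 19248 protein-coding genes did. With the canonical transcript the values were 7 of 35 genes (20.0%) and 24.6%. No synthetase held an 8mer in its 3′ UTR (0 of 35), against 4.50% of all genes.

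The genes with a 7mer in the longest 3′ UTR were FARSA, IARS1, KARS1, MARS1, NARS1, HARS2, LARS2 and YARS2. Their RNA-seq values at 72 h went in both directions, from -0.33 in IARS1 to 0.73 in NARS1. None of them was among the 8 genes called higher in the pull-down at 72 h, where 10.2% of all genes tested were. With so few genes this absence says little about the matches, whose part was not tested. IARS1 and KARS1 are shown as the pair that moved in opposite directions in RNA-seq, with the match in capitals and its coordinates in GRCh38, both in the 3′ UTR. The other match shown, in NARS1, is the 7mer-A1 of the gene that rose most among the 8.

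IARS1 7mer-m8, chr9:92210678-92210684, minus strand: tgtgtaaaataTGCTGCTtggattgaaat
KARS1 7mer-m8, chr16:75627808-75627814, minus strand: gaattcttgtgTGCTGCTttccatttgac
NARS1 7mer-A1, chr18:57601070-57601076, minus strand: aactctgcttaGCTGCTAataatcctgag

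RARS1, the gene with the largest pull-down effect, held no match in its 3′ UTR of 111 bases and 10 matches in its coding sequence of 1983 bases. No other of the 35 genes held more than 6 in the coding sequence of its canonical transcript (GARS1, VARS1 and TARS2 held 6 each). Of 19228 protein-coding genes, 1.26% held at least 10 matches in the coding sequence, and 2.51% held at least the 5.04 matches per kilobase of RARS1. Of the 10 matches, 1 was an 8mer, 3 were 7mer-m8, 2 were 7mer-A1 and 4 were 6mers, and 9 of the 10 lay at base 1168 of the coding sequence or later. The 8mer and 4 of the 7mers are shown, all in coding exons on the plus strand of chromosome 5, with the match in capitals and its coordinates in GRCh38.

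RARS1 7mer-A1, chr5:168506131-168506137: catctgacctgGCTGCTAttaaacaaaga
RARS1 7mer-m8, chr5:168506745-168506751: cagacaatattTGCTGCTgctcaaatgat
RARS1 7mer-m8, chr5:168516801-168516807: gaggaattgaaTGCTGCTcagacatccgt
RARS1 7mer-A1, chr5:168518030-168518036: gttctatgataGCTGCTActgtgtggaga
RARS1 8mer, chr5:168519111-168519118: catgtggcgtaTGCTGCTAtgtgaagcagt

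The 7mer-m8 not shown starts 3 bases into the one at chr5:168506745-168506751 and overlaps it. The number of matches in coding sequence varied among the 8 genes called in the pull-down at 72 h. CARS1, SARS1 and AARS1 held 0, EPRS1 2, QARS1 and LARS1 3 and GARS1 6, and VARS1, which held 6, did not pass in the pull-down at 72 h (0.27 ± 0.13, adjusted p = 0.131). Some of these matches overlap and are not separate sites. The 7mers of GARS1 that start at bases 47, 50 and 53 overlap, as do the 6mer of LARS1 at base 439 and its 8mer at base 441. Over the 35 genes, 20 (57.1%) held a 7mer or an 8mer in the coding sequence, against 38.9% of all genes. These shares take no account of length, and a longer coding sequence has more room for a match. The coding sequences of the 35 genes ran from 1083 bases in WARS2 to 4539 in EPRS1, so the shares do not show a denser placing of matches. Whether the matches have a part in the pull-down values was not tested.

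**Figure D5:**
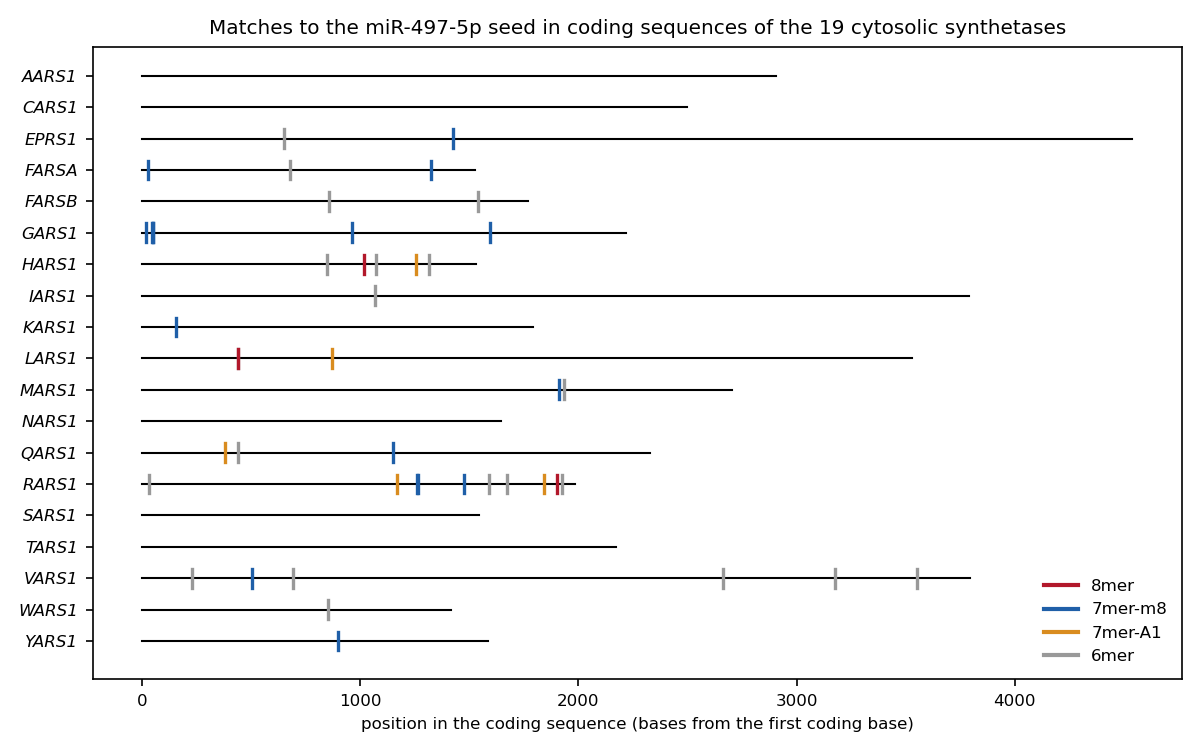
Positions of seed matches in the coding sequence of the canonical transcript for the 19 cytosolic synthetases, drawn to scale in bases from the first coding base and coloured by the kind of match. RARS1 holds 10 matches, most of them in the last part of its coding sequence, and AARS1, CARS1, NARS1, SARS1 and TARS1 hold 0.

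Genes that work beside the synthetases were described from fixed lists, to be read against the 27.9% of all genes tested that were called higher and the 29.6% called lower. Of 13 tested partners of charging and proofreading, 3 were higher and 4 lower in RNA-seq at 72 h, among them MTFMT, which formylates the mitochondrial initiator tRNA (-0.49 ± 0.09), and SEPSECS, which makes selenocysteinyl-tRNA (0.62 ± 0.16). Of 29 genes of tRNA maturation and export, 8 were higher and 14 lower, with SSB, the La protein that binds tRNA precursors, higher (1.01 ± 0.04) and the splicing endonuclease subunits TSEN34 and TSEN54 lower (-1.12 ± 0.05 and -1.04 ± 0.07). RPP25, a subunit of RNase P, also fell (-1.18 ± 0.06).

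Of 51 tRNA modification genes, 9 were higher and 22 lower, with a median of -0.13. PUS1, a pseudouridine synthase, fell by 0.89 ± 0.06 on the log2 scale, CTU2 of the uridine thiolation pathway fell by 0.89 ± 0.07, and TRMU, its mitochondrial counterpart, fell by 0.74 ± 0.06. Side by side, the share called lower was 11 of 35 among the synthetases and 22 of 51 among the modification genes, against 29.6% of all genes tested. This difference between the lists was not tested.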

How the data were processed

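Counts were deposited by the authors as whole numbers per gene, 1 file per library, not normalized. Per the submitters' processing notes, the tools were Trimmomatic 0.36, STAR 2.5.2b and featureCounts of Subread 1.5.2 on GRCh38. The annotation release and the strand setting are not given in the sources used here. Symbols and transcripts came from GENCODE release 44, which named 56410 of 57500 identifiers (98.1%).

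Counts were fitted with edgeR 4.0.16 (quasi-likelihood, robust, TMM scaling, filterByExpr by group) in R 4.3.3. The 12 RNA-seq and the 12 pull-down libraries were fitted apart, and the 12 libraries of each time together for the difference between assays. The Benjamini-Hochberg adjustment ran over every gene tested, and calls were made at an adjusted p under 0.05. Standard errors were derived from the edgeR test, as the absolute log2 fold change divided by the square root of the F statistic. The code was tested on simulated data. Alternatives were DESeq2 1.42.0, its size factors, library totals, no filter, only the 6 libraries compared, a replicate block and leaving out each library. Leaving out libraries in the contrasts between times and assays was added after seeing the data.

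Any of the 35 members could be named, and of each other list up to 4 genes with the smallest adjusted p in RNA-seq at 72 h. The members and lists were chosen with earlier results of these data known. Seed and promoter matches were counted by exact letters.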

Additional observations from a re-analysis of the deposited data

Results flagged for a closer look

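The effect of miR-497-5p-RE, as a log2 fold change over Control, differed between 72 h and 12 h by the edgeR contrast of the times for 23 synthetases in RNA-seq and 3 in the pull-down, and each is given as the value at 72 h minus that at 12 h.

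Among cytosolic genes in RNA-seq, the difference was above 0 for EPRS1 (1.00), NARS1 (0.83), TARS1 (0.81), LARS1 (0.70), GARS1 (0.54), CARS1 (0.42), QARS1 (0.22), HARS1 (0.21), FARSB (0.19) and KARS1 (0.15). It was below 0 for YARS1 (-0.64), SARS1 (-0.37), IARS1 (-0.27), WARS1 (-0.25), AARS1 (-0.22) and FARSA (-0.19). FARSA passed here (adjusted p = 0.0423) without passing at either time.

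Among mitochondrial genes in RNA-seq, the difference was above 0 for RARS2 (0.61) and IARS2 (0.26). It was below 0 for MARS2 (-0.59), AARS2 (-0.49), EARS2 (-0.33), NARS2 (-0.27) and CARS2 (-0.13).

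In the pull-down the difference was 0.79 for CARS1, 0.77 for QARS1 and 0.64 for GARS1.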

How the results depend on the processing

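No synthetase changed sign while called. Of the calls in RNA-seq at 72 h, 15 of 26 held under every alternative that gave a value, as did 5 of 8 in the pull-down at 72 h and 2 of 3 in RNA-seq at 12 h.

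Scaling by library totals gave, in RNA-seq at 12 h, 1 gene higher (1 mitochondrial) and 4 lower (4 cytosolic), with medians of -0.04 over all 35, -0.04 cytosolic and -0.03 mitochondrial. At 72 h it gave 8 higher (7 cytosolic and 1 mitochondrial), 8 cytosolic genes lower, and medians of -0.05 over all 35 and 0.07 over the cytosolic genes. In the pull-down at 12 h it gave 1 gene higher, cytosolic, with a cytosolic median of 0.16. No mitochondrial gene (0) then had a pull-down effect below its RNA-seq effect at 72 h.

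In the pull-down at 12 h, DESeq2, its size factors, no filter and the replicate block each gave 1 gene higher, cytosolic. In RNA-seq at 12 h, no filter and a fit of only the 6 libraries each gave 1 gene higher, mitochondrial. In the pull-down at 72 h, no filter gave 1 gene lower and the 6 libraries gave 2, mitochondrial in both. The replicate block and no filter each left 0 mitochondrial genes below in the contrast of assays at 72 h. The cause of these shifts was not tested.

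Leaving out 1 library at a time gave, in RNA-seq at 12 h, 1 to 3 genes higher (0 to 1 cytosolic, 1 to 2 mitochondrial) and 1 to 2 lower (1 to 2 cytosolic). In RNA-seq at 72 h it gave 2 to 5 mitochondrial genes higher, the 2 without control replicate 3. In the contrast of the times in RNA-seq it gave 1 to 3 mitochondrial genes higher and 3 to 7 lower, with 1 higher without the 72 h control replicate 3 or treated replicate 1, and 3 lower without that control. In the pull-down at 12 h it gave 0 to 1 higher (0 to 1 cytosolic), the 1 without control replicate 1, with medians of 0.01 to 0.14 cytosolic and -0.15 to 0.12 mitochondrial. At 72 h it gave 5 to 9 higher (5 to 9 cytosolic), 0 to 1 lower (0 to 1 cytosolic, 0 to 1 mitochondrial) and a cytosolic median of 0.25 to 0.47. In the contrast of the times in the pull-down it gave 2 to 5 higher (2 to 5 cytosolic), the 5 without control replicate 3 of 12 h, and 0 to 1 lower (0 to 1 mitochondrial). In the contrast of assays it gave 0 to 1 higher (0 to 1 cytosolic) at 12 h. At 72 h it gave 3 to 5 higher (3 to 5 cytosolic, 0 to 1 mitochondrial) and 2 to 5 lower (0 to 2 mitochondrial).

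Same-numbered libraries of the arms correlated between -0.0294 and 0.174 in their deviations, so the numbers were not taken to pair them. The replicate block ended the call of LARS1 in the pull-down at 72 h (adjusted p = 0.0545), gave that of RARS1 at 12 h (0.0364) and changed no other call of a single synthetase in the 4 main comparisons. The scatter between libraries was wider in the pull-down (a coefficient of variation of 0.349) than in RNA-seq (0.0601). Depth limits the members with few counts in the pull-down, such as MARS2 and PARS2, and the lowest total count was 8262425.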
